A study of Homo sapiens with 8 samples.

Results

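The nuclear-encoded subunits of oxidative phosphorylation were followed in clones of the B-cell acute lymphoblastic leukemia line SEM that had become resistant to auxin-induced degradation of CTCF. Members were the protein-coding genes whose symbols carry the family names of the 5 respiratory complexes, namely NDUFA, NDUFB, NDUFC, NDUFS or NDUFV followed by a digit, SDHA to SDHD, UQCR, COX4 to COX8 and ATP5. This gave 89 genes of the 60754 rows measured, of which 37 belong to complex I, 4 to complex II, 9 to complex III, 19 to complex IV and 20 to complex V. NDUFA4 and NDUFA4L2 carry complex I names and were placed with complex IV, where NDUFA4 was later found. A total of 81 members reached a TPM (transcript abundance normalized for length and library total) of 1 in any library and entered the test, among 15614 genes in all.

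Oxidative phosphorylation passes electrons from NADH (complex I) and succinate (complex II) through ubiquinone to complex III, by cytochrome c to complex IV and so to oxygen. Complexes I, III and IV pump protons across the inner mitochondrial membrane, and complex V (ATP synthase) uses the returning protons to make ATP. A few core subunits of complexes I, III, IV and V are encoded in the mitochondrial genome and all others in the nucleus, so that the complexes draw on transcripts from both. Core subunits carry the redox centers or the catalytic sites, and the smaller accessory subunits surround them and are needed for assembly and stability.

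Total RNA was sequenced after ribosomal RNA depletion from the CTCF-AID2 clones C17.2 and C3.2, in 4 groups of 2 libraries (a parental and a resistant group per clone). In all 4 groups both CTCF alleles carried the miniAID-mClover3 tag, and the cells expressed a mutant OsTIR1 from a lentiviral cassette with the MND promoter and a Zeocin resistance gene. Each clone grew from a single sorted cell, so each stands for 1 line. The parental groups received no drug. The resistant groups had been kept for 36 days in 1 μM 5-Ph-IAA, the auxin analog that recruits the tagged protein to the ubiquitin ligase, with 100 μg/ml Zeocin, and were then left for 48 h without either drug. The study describes a truncating change in CTCF beside an intact copy in resistant C17.2 and a substitution inside the miniAID tag in resistant C3.2. Resistance, drug exposure and time in culture therefore change together within each clone. The labels do not say whether the libraries of a group came from separate cultures, so p-values measure the spread between these libraries. The library numbers in the labels form a separate series for each clone, so clone and number series cannot be told apart where levels are compared across clones.

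The libraries carried transcripts of B-lineage leukemia cells. PAX5 lay at 116 to 193 TPM and HOXA9 at 51.7 to 77.8, CD79B was lower at 4.33 to 15.3, and DNTT, often used to mark immature lymphoid cells, reached only 0.25. T-cell, myeloid and erythroid markers stayed at or below 2.34 TPM. Protein-coding genes took 36 to 43.3% of the deposited TPM and small nuclear RNAs 31.2 to 37.6%. All values below are TPM divided by a library factor (0.893 to 1.16), called scaled TPM, because the factors of the resistant C17.2 libraries were the highest. Values in TPM keep no read depth, so the counting error behind each is unknown, and in bulk RNA fewer cells of a kind and less RNA per cell cannot be told apart. Fold changes were taken on log2(scaled TPM + 1) and understate the change of genes with low values.

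The promoters of the members were searched for motifs of known regulators of the respiratory chain, since the members lie across the genome and many moved together. NRF1 and the ETS-family factor GABP are long-known activators of these genes, and YY1 also binds many of them. The 150 bases before the RefSeq start site (GRCh38.p14) are shown for 6 members that the results return to, namely a core protein of complex III (UQCRC1), the widely expressed subunit 6A (COX6A1), the catalytic flavoprotein of complex II (SDHA), genes for the rotor ring of ATP synthase with different changes (ATP5MC1 and ATP5MC2) and a member that fell (COX7A2L). Letters in capitals mark a match on either strand to the NRF1 motif GCGCANGC or the ETS motif CCGGAAG, where N is any base. The YY1 motif AAGATGGC, searched in the same way, did not occur in these stretches and can overlap the ETS motif by its first letters.
UQCRC1, chr3:48609647-48609796, minus strand: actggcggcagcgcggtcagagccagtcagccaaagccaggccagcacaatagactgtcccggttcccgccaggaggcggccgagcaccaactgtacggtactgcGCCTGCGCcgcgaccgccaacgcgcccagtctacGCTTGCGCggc
COX6A1, chr12:120437963-120438112, plus strand: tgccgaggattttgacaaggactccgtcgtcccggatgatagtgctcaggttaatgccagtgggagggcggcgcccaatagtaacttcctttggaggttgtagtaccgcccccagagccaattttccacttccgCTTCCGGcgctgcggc
SDHA, chr5:218170-218319, plus strand: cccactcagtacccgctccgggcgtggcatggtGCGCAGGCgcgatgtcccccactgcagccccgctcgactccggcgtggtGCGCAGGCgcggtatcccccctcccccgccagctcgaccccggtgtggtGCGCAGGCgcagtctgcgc
ATP5MC1, chr17:48892637-48892786, plus strand: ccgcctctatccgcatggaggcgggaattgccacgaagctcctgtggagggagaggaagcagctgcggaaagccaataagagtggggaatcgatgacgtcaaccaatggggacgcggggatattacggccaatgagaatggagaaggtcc
ATP5MC2, chr12:53676084-53676233, minus strand: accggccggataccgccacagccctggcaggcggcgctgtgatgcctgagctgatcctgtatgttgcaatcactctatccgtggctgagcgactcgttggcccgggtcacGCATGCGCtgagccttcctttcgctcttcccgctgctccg
COX7A2L, chr2:42361218-42361367, minus strand: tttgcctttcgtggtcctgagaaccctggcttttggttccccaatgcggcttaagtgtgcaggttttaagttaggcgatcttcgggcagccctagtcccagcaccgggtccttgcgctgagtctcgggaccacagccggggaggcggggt

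A RefSeq promoter window of 300 bases (250 before the start and 50 after it) was matched for 71 of the 89 members. The NRF1 motif was present in 39.4% of them, against 12.5% of all 27305 promoters and 16.7% of the 15842 promoters of protein-coding genes. The ETS motif was present in 28.2%, against 10.7% and 14.2%, and the YY1 motif in 15.5%, against 3.03% and 3.91%. At least 1 of the 3 motifs was found in 43 of the 71 windows (60.6%), against 22.8% of all promoters and 30% of those of protein-coding genes. Split by the change in C17.2 described below, 21 of 33 windows of members called higher held one (63.6%), as did 20 of 31 windows of members not called (64.5%). None of the windows of the 3 members called lower held these letters.

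In C17.2, many subunits rose together in the resistant cells, and a few fell. Of 81 members tested, 40 were called higher and 3 lower (limma, Benjamini-Hochberg adjusted p under 0.05), where 13.4% of all genes tested were called higher and 13.9% lower. The members called lower were NDUFA10, COX7A2L and NDUFA4L2. The median log2 fold change of the members was 0.27, against 0.00 over all genes, and 66 members had a positive value. Both resistant libraries lay above both parental libraries for 56 members (33.3% of all genes) and below them for 11 (32.7% of all genes). The rises were modest in size, with 6 members more than 1.5-fold higher. Each of the 43 called members kept its direction without any single library, but the count called higher came to 22 without the first parental library of C17.2, 24 without the second and 23 without its second resistant library.

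In C3.2, the same subunits showed no shared rise. No member was called higher and 1 was called lower, NDUFA6, where 4.46% of all genes were called higher and 6.9% lower. The median log2 fold change was -0.04 and 32 of 81 members had a positive value. At an unadjusted p under 0.05 there were 8 members higher and 11 lower, together 19 of 81, against 27.6% of all genes. Both resistant libraries lay above both parental libraries for 18 members (27.8% of all genes) and below them for 25 (28.1% of all genes). For 64 members the 95% interval of the change in C3.2 lay wholly between -0.5 and 0.5 on the log2 scale. That range also holds the median of 0.27 seen in C17.2, so this count cannot show that such a rise was absent. Without the first resistant library of this clone the median was -0.0557. After rescaling over protein-coding genes 6 members were called higher and 1 lower. On that scale 10.9% of all genes were called higher and 4.64% lower.

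The difference between the changes of the clones was itself tested. It was positive and past the threshold for 19 members and negative for 1 (NDUFA4L2), where 4.91% of all genes were called in the positive direction and 4.99% in the negative. All 19 were among the 40 members called higher in C17.2, and for the other 21 of those 40 the clones could not be told apart by this test. The median difference over the members was 0.27 on the log2 scale. The count depended on single libraries: the 20 calls became 4 without either parental library of C3.2, 5 without either parental library of C17.2, and 7 and 6 without its first and second resistant library. COX6C, NDUFA6 and NDUFA4L2 were the members that passed in every alternative run.

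**Figure D1:**
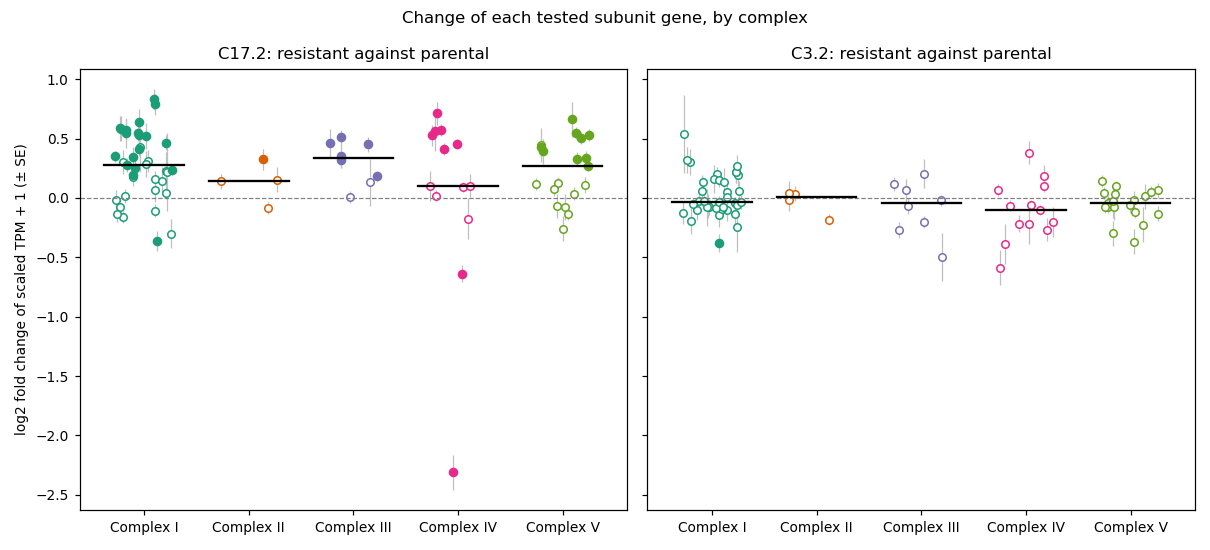
Log2 fold change of scaled TPM + 1, resistant against parental, for each tested member in C17.2 (left) and C3.2 (right), by complex. Points are genes with their standard errors, filled where the adjusted p was under 0.05, and black lines are medians. In C17.2 the medians of all 5 complexes lie above 0 (0.10 to 0.34), and in C3.2 they lie between -0.10 and 0.01.

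The summed level of the 89 members was also compared by library. In C17.2 it was 4487 and 4485 scaled TPM in the parental libraries and 5345 and 5244 in the resistant ones, a ratio of means of 1.18. In C3.2 it was 6249 and 6224 in parental and 6213 and 6116 in resistant cells, a ratio of 0.988. By complex, the ratio in C17.2 was 1.22 for complex I, 1.07 for complex II, 1.23 for complex III, 1.18 for complex IV and 1.15 for complex V, and both resistant libraries lay above both parental ones in each. With the TPM as deposited, the ratio over all members was 1.32 in C17.2 and 1.04 in C3.2. On that scale the median of all genes itself moved by 0.13 (log2) in C17.2, and 24.7% of all genes were called higher and 8.19% lower, so changes are given here relative to the library factors.

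**Figure D2:**
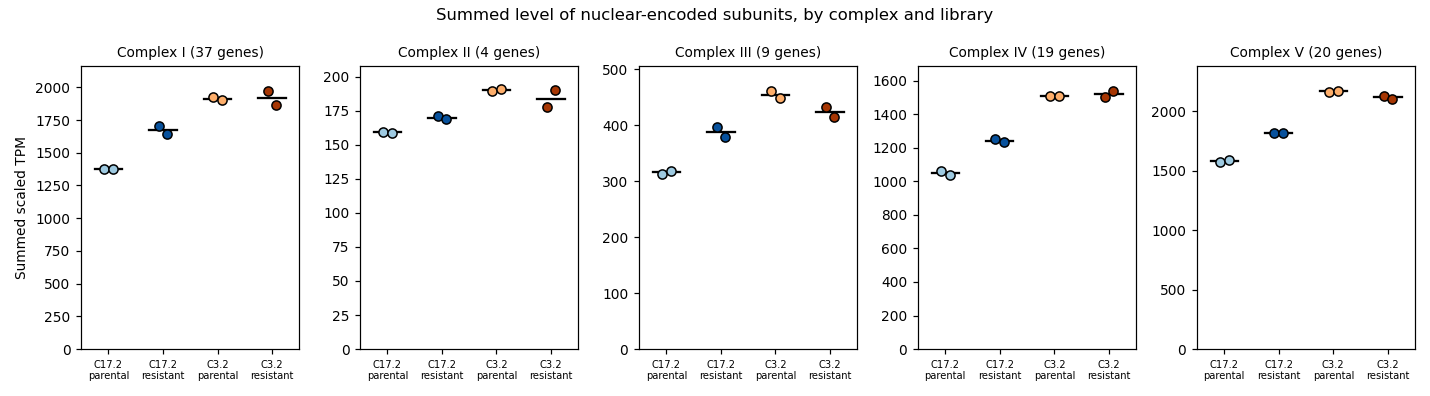
Summed scaled TPM of the member genes of each complex (y axis, from 0) in each of the 8 libraries, with 2 points and a bar at their mean for each group on the x axis. For complex I, the C17.2 libraries rise from 1373 and 1379 to 1707 and 1646, below the 1869 to 1970 of the C3.2 libraries.

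The members started from different levels in the clones. In 69 of 81 members both parental libraries of C17.2 lay below all 4 libraries of C3.2, which held for 22% of all genes, and 2 members lay above all 4 (22.7% of all genes). Among the 40 members called higher in C17.2 the former was so for 39. For 27 of the 40 (67.5%) both resistant libraries of C17.2 were still below both parental libraries of C3.2, against 33.6% of all genes. In 57 of 81 members the resistant C17.2 mean lay above the parental C17.2 mean and below the parental C3.2 mean (15% of all genes). Genes that fell from a higher start to a level between the parental means were not counted. The calls, the starting levels and the count of means in between share the parental libraries of C17.2. Low values in those libraries would raise each of them, so they are not independent. The library numbers split the same way as the clones, as described above, and the difference in starting level was not tested.

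**Figure D3:**
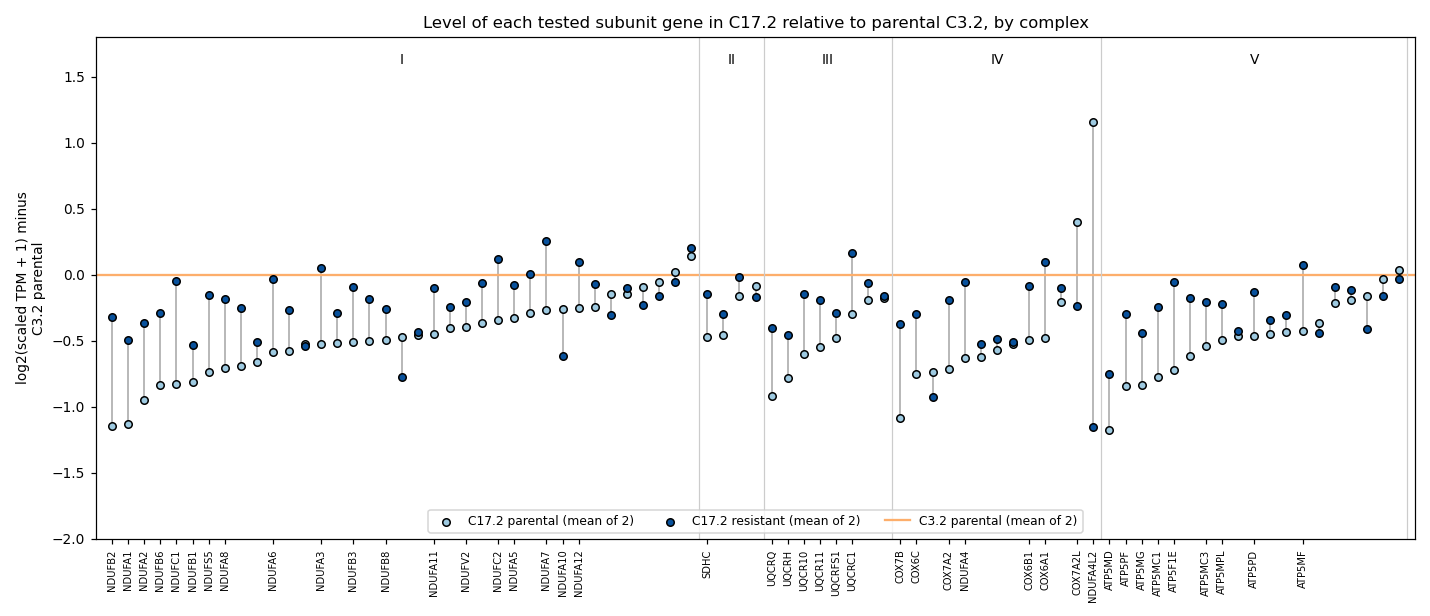
Level of each tested member in C17.2, as log2(scaled TPM + 1) of the mean of 2 libraries minus that of parental C3.2 (line at 0), by complex, with the members called in C17.2 named. Light points are parental and dark points resistant cells of C17.2. Most light points lie below the line, and most dark points lie between them and the line. The parental libraries of C17.2 also enter the calls.

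Complex I, the NADH dehydrogenase, had called members mainly among its accessory subunits. Of 29 accessory subunits, 17 were called higher and 1 lower in C17.2, with a median log2 fold change of 0.35. Of the 7 nuclear core subunits only NDUFV2 was called higher, and their median was -0.08. The difference between core and accessory subunits was not tested. NDUFB2, an accessory subunit of the membrane arm, had the largest rise. It measured 23.8 and 24.5 scaled TPM in parental and 43.6 and 44.1 in resistant C17.2, and 54.6 and 55.1 against 57.9 and 70.6 in C3.2. The groups did not overlap in either clone, but the change passed the test only in C17.2 (log2 fold change 0.83 ± 0.088 SE, adjusted p = 0.00125, against 0.22 ± 0.088, adjusted p = 0.171). The difference between these changes was 0.62 (adjusted p = 0.0307). NDUFB2 shares 1239 of its 4447 exonic bases with BRAF on the opposite strand, and BRAF fell by 0.29 in C17.2.

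NDUFC1, another accessory subunit, was at 5.99 and 5.25 scaled TPM in parental and 10.6 and 10.2 in resistant C17.2 (log2 fold change 0.79 ± 0.0906, adjusted p = 0.00172). C3.2 held 10.8 in both parental libraries and 13.8 and 11.6 in the resistant ones (0.21 ± 0.0906, adjusted p = 0.187). Resistant C17.2 was then close to the level of parental C3.2. NDUFC1 shares 584 of its 2994 exonic bases with NAA15 on the opposite strand, and NAA15 had a value of 0.11 in C17.2. In TPM as deposited, NAA15 had a mean of 27.28 over the libraries and NDUFC1 9.86. The part of this overlap in the NDUFC1 values was not tested. NDUFA1, encoded on the X chromosome and needed for assembly of the membrane arm, went from 42.3 and 38.2 to 63.2 and 63.6 in C17.2 (0.64 ± 0.106, adjusted p = 0.00636), while C3.2 held 90.3 and 88.8 in parental and 90.8 and 72.3 in resistant cells. The parental and resistant groups overlapped in C3.2.

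NDUFA6 changed in opposite directions. This accessory subunit of the matrix arm measured 18.7 and 18 scaled TPM in parental and 26.6 and 28.2 in resistant C17.2. C3.2 was at 28.1 and 28.2 in parental and 23 and 19.9 in resistant cells. It was called in both clones, higher in C17.2 (0.55 ± 0.0735, adjusted p = 0.00295) and lower in C3.2 (-0.38 ± 0.0735, adjusted p = 0.0252). The call in C3.2 was lost in 9 of 17 alternatives, with the TPM as deposited and the clone fitted alone among them (largest adjusted p = 0.133), whereas the difference of 0.93 between the clones passed in all 16 that could test it.

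Of the core subunits of complex I, NDUFV1, which binds NADH and FMN, was at 66.8 and 66.9 scaled TPM in parental and 62.5 and 61.4 in resistant C17.2 (-0.11 ± 0.0537, adjusted p = 0.19). NDUFS1, the largest iron-sulfur subunit, was at 29.5 and 29.8 against 27.8 and 28.3 (-0.08 ± 0.0433, adjusted p = 0.242, 95% interval -0.18 to 0.03). The subunits NDUFS3, NDUFS7 and NDUFS8 of the ubiquinone-reducing module had values from -0.30 to 0.29 and none was called. NDUFV2, an iron-sulfur subunit, rose from 62.6 and 65.3 to 72.7 and 73.6 (0.19 ± 0.0392, adjusted p = 0.0142). Among accessory subunits, NDUFA10 was called lower, from 32 and 29.4 to 25.4 and 22.1 (-0.36 ± 0.0861, adjusted p = 0.0244), which held in 11 of 17 alternatives. The median transcript length was 894 bases for the core and 669 bases for the accessory subunits.

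Complex II, the succinate dehydrogenase, is the only complex without a mitochondrially encoded subunit. Its membrane anchor SDHC was called higher in C17.2, from 26 and 25.6 scaled TPM to 35.7 and 29.8 (0.32 ± 0.0894, adjusted p = 0.0395), a call that held in 9 of 17 alternatives. The catalytic SDHA measured 66.4 and 63.6 in parental and 60.3 and 62.1 in resistant C17.2 (-0.09 ± 0.0487, adjusted p = 0.249), and 70.2 and 67.8 against 62.4 and 59 in C3.2 (-0.18 ± 0.0487, adjusted p = 0.0624). SDHB, the iron-sulfur subunit, and SDHD, the second anchor, had values of 0.14 and 0.15 in C17.2 and were not called. Rows of SDHA pseudogenes held 26.4 to 31.8% of the summed TPM of gene and pseudogenes, so the SDHA values are uncertain.

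In complex III, the cytochrome bc1 complex, 6 of 8 tested members were called higher in C17.2 and all 8 had positive values. UQCRQ, an accessory subunit, went from 38.9 and 40 scaled TPM to 59 and 54.4 (0.51 ± 0.0643, adjusted p = 0.00241) and was at 77 and 73.8 against 75.4 and 68.5 in C3.2. The core protein UQCRC1, with NRF1 motifs in the promoter stretch shown above, went from 40.5 and 40.7 to 57.9 and 54.8 (0.46 ± 0.123, adjusted p = 0.0351), and its call held in 9 of 17 alternatives. The other core protein, UQCRC2, was at 78.4 and 81.7 against 83.4 and 78, with overlapping groups (0.01 ± 0.0491, adjusted p = 0.903).

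UQCRH, the hinge protein between cytochromes c1 and c, rose in C17.2 from 67.3 and 66.2 to 86.3 and 81.1 (0.32 ± 0.0688, adjusted p = 0.0166). In C3.2 it measured 119 and 112 in parental and 102 and 89.9 in resistant cells (-0.27 ± 0.0688, adjusted p = 0.0569), and the clones differed by 0.59 (adjusted p = 0.0171). UQCRB had the lowest value of complex III in C3.2, -0.50 ± 0.198, but its resistant libraries measured 28.1 and 17.7 and the adjusted p was 0.167. UQCRFS1, the Rieske iron-sulfur protein, rose by a small amount, 0.19 ± 0.0428 (adjusted p = 0.0211). Pseudogene rows of UQCRFS1 held 5.18 to 17.8% of the sum.

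In complex IV, cytochrome c oxidase, 6 of 13 tested members were called higher and 2 lower in C17.2. COX7B measured 40.8 and 40 scaled TPM in parental and 67 and 66.8 in resistant C17.2 (0.71 ± 0.0975, adjusted p = 0.00319). In C3.2 it measured 90.9 and 82.7 against 79.7 and 64.8 (-0.27 ± 0.0975, adjusted p = 0.138). Its difference between the clones, 0.98 (adjusted p = 0.0102), was the largest positive one among the members. COX6A1, with an ETS motif in the stretch shown above, was nearly identical within groups: 116 in both parental libraries and 174 and 173 in the resistant ones of C17.2 (0.57 ± 0.052, adjusted p = 0.000697). In C3.2 the values were 160 and 165 against 162 and 178, with overlapping groups. Pseudogene rows held 5.49 to 10.1% of the summed TPM of gene and pseudogenes for COX6A1, and 4.37 to 10.7% for COX6C.

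COX6B1, COX6C, COX7A2 and NDUFA4 were also called higher, with log2 fold changes of 0.41 to 0.56. NDUFA4 only just passed (adjusted p = 0.0499) and lost the call in 9 of 17 alternatives. COX4I1, the largest of the nuclear subunits, was not among them, at 137 and 133 against 139 and 135 (0.02 ± 0.0439, adjusted p = 0.789), and COX7C, the most abundant member of the complex at a mean of 182 scaled TPM, had a value of 0.09 (adjusted p = 0.173). COX8A had the highest value of this complex in C3.2, with 141 and 154 in parental and 179 and 206 in resistant cells (0.38 ± 0.0968, adjusted p = 0.0559).

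COX7A2L, a relative of subunit 7A that joins complexes III and IV in supercomplexes, fell while COX7A2 rose. In C17.2, COX7A2L measured 68 and 72 scaled TPM in parental and 42.3 and 47.1 in resistant cells (-0.64 ± 0.0736, adjusted p = 0.00175), and COX7A2 measured 99.6 and 106 against 147 and 151 (0.53 ± 0.088, adjusted p = 0.00668). The ratio of COX7A2 to COX7A2L thus went from 1.46 and 1.48 to 3.47 and 3.21. Parental C3.2 was already at 3.28 and 3.17, and its resistant libraries at 4.05 and 4.5. COX7A2L itself measured 50.8 and 54.7 against 43.5 and 47.1 there (-0.22 ± 0.0736, adjusted p = 0.119). C17.2 minus C3.2 gave -0.42, which missed the threshold (adjusted p = 0.0558).

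NDUFA4L2, a relative of NDUFA4 known as a target of hypoxia-inducible factor, had the largest change of any member. It fell in C17.2 from 4.98 and 4.33 scaled TPM to 0.24 and 0.04 (-2.31 ± 0.149, adjusted p = 0.000199). In C3.2 it measured 1.75 and 1.33 in parental and 0.61 and 0.77 in resistant cells (-0.59 ± 0.149, adjusted p = 0.055), so the groups did not overlap in either clone. The clones differed by -1.72 (adjusted p = 0.00651). Its share of the summed NDUFA4 and NDUFA4L2 level was 20 and 15.9% in parental C17.2 and 0.7 and 0.1% in resistant cells. NDUFA4L2 shares 33 exonic bases with SHMT2 on the opposite strand, which was at 164 and 160 scaled TPM in parental and 54.2 and 54.9 in resistant C17.2 (-1.55 ± 0.0454, adjusted p = 1.31e-05), and at 75 and 78.8 against 55 and 57.7 in C3.2. Whether the authors counted by strand is not given in the sources used here, and the part of the overlap in the NDUFA4L2 values was not tested.

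**Figure D4:**
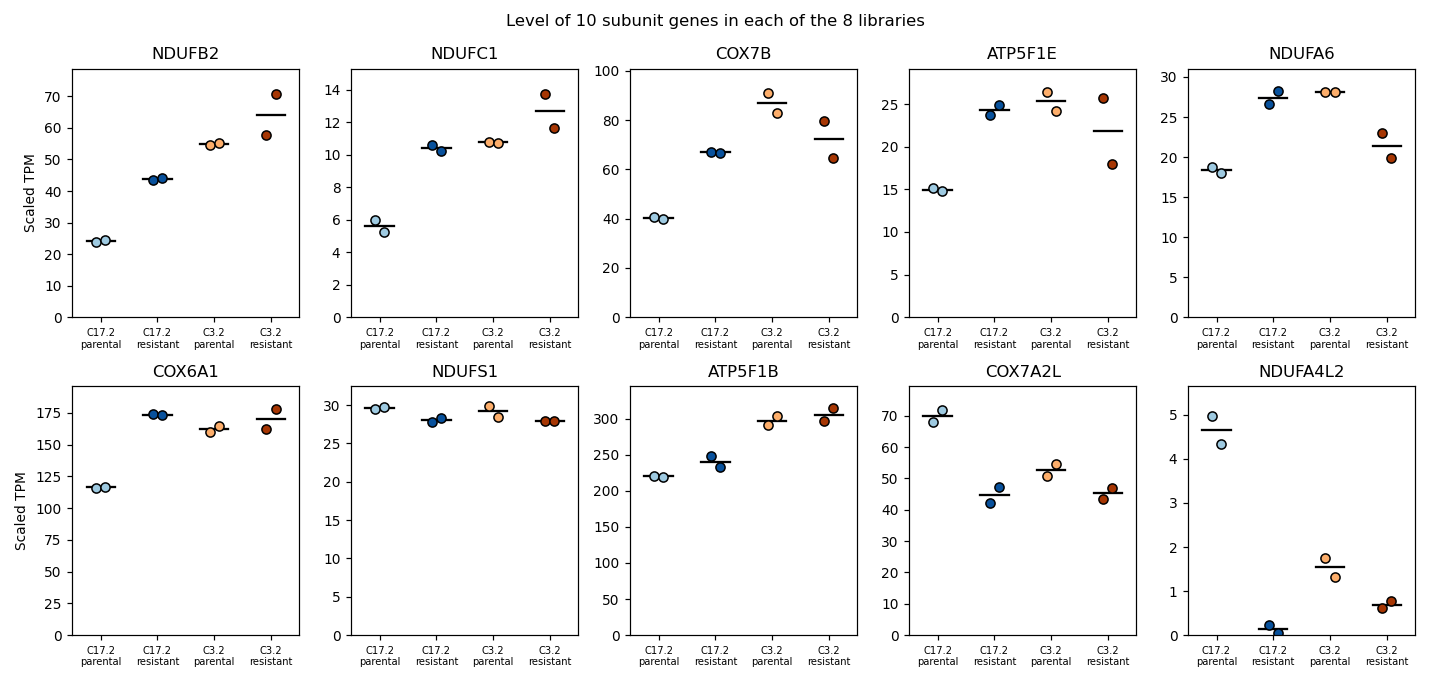
Scaled TPM (y axis, from 0) of 10 members in each of the 8 libraries, with 2 points and a bar at their mean for each group on the x axis. NDUFB2, NDUFC1, COX7B, ATP5F1E, NDUFA6 and COX6A1 are higher in both resistant than in both parental libraries of C17.2, NDUFS1 and ATP5F1B were not called there (log2 fold changes -0.08 and 0.13), and COX7A2L and NDUFA4L2 are lower.

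In complex V, the ATP synthase, 9 of 19 tested members were called in C17.2, each of them higher. The alpha and beta subunits of the catalytic head were not among them. ATP5F1A, the alpha subunit, measured 145 and 146 scaled TPM against 148 and 151 (0.04 ± 0.0569, adjusted p = 0.676), and ATP5F1B, the beta subunit and most abundant member of all, measured 220 in both parental libraries and 248 and 233 in the resistant ones (0.13 ± 0.0508, adjusted p = 0.116). ATP5F1E, the epsilon subunit of the central stalk, had the largest rise of the complex, from 15.1 and 14.8 to 23.8 and 24.8 (0.66 ± 0.148, adjusted p = 0.0192). The values in C3.2 were 26.4 and 24.2 against 25.7 and 18.

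Of the 9 subunits of the peripheral stalk and the membrane part, 6 were called higher. ATP5PF, the coupling factor of the peripheral stalk, went from 30.1 and 32.4 to 47.2 and 45 (0.55 ± 0.0514, adjusted p = 0.000795). ATP5MF, subunit f of the membrane part, went from 135 and 143 to 198 and 197 (0.50 ± 0.0491, adjusted p = 0.000913). ATP5PO, which couples the stalk to the head, was at 86.1 and 93.4 against 94.3 and 99.3 (0.11 ± 0.0701, adjusted p = 0.303). The inhibitor of ATP hydrolysis, ATP5IF1, had negative values in both clones, -0.26 (adjusted p = 0.123) in C17.2 and -0.37 (adjusted p = 0.0759) in C3.2. ATP5PF shares 692 of 2009 exonic bases with GABPA on the opposite strand, and GABPA had a value of -0.08 in C17.2.

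The rotor ring is built of many copies of subunit c, and ATP5MC1, ATP5MC2 and ATP5MC3 encode the same mature protein with different import sequences. ATP5MC1 rose in C17.2 from 38 and 35.3 to 54.3 and 52.2 scaled TPM (0.53 ± 0.0525, adjusted p = 0.000971) and ATP5MC3 from 82.3 and 78.4 to 106 and 97.1 (0.33 ± 0.0619, adjusted p = 0.00975). ATP5MC2, the most abundant of the genes, was at 233 and 230 against 213 and 208 (-0.14 ± 0.0467, adjusted p = 0.0784). The total of these genes was 353 and 344 in parental and 373 and 357 in resistant cells. The share of ATP5MC2 in that total went from 65.9 and 67% to 57.1 and 58.2%, next to 56.6 and 56.8% in parental C3.2. Of the promoter stretches shown above, that of ATP5MC2 holds an NRF1 motif and that of ATP5MC1 none.

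**Figure D5:**
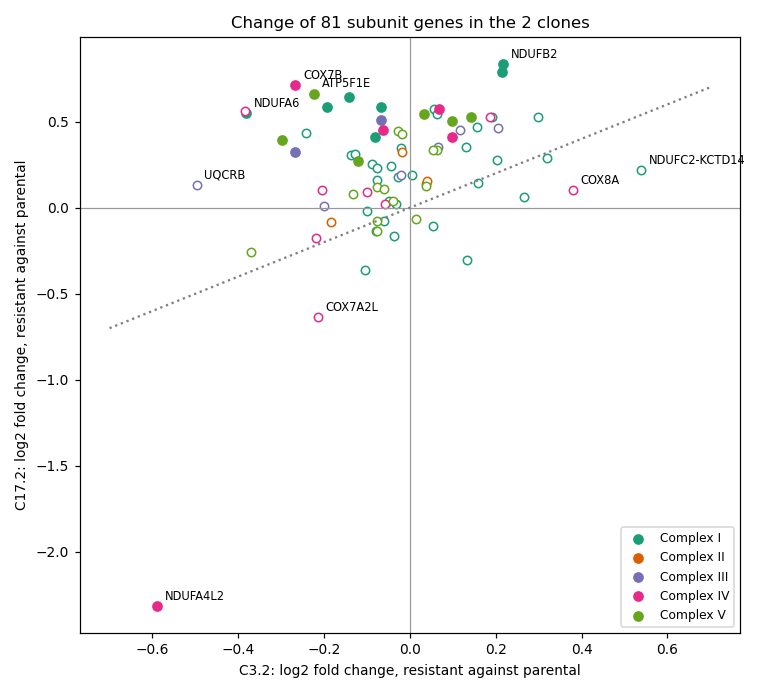
Log2 fold change, resistant against parental, of the 81 tested members in C3.2 (x axis) and C17.2 (y axis), colored by complex and filled where the difference between the clones passed the test. Of 20 filled points, 19 lie above the dotted line of equal change, and NDUFA4L2 (-0.59, -2.31) lies below it.

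Tissue-restricted isoforms were low or listed at 0. COX4I2, COX6B2, COX7A1 and COX7B2 were listed at 0 in all 8 libraries, and COX6A2, the heart and muscle isoform of subunit 6A, was at 0.16 scaled TPM in 1 library and 0 in the others. COX8C reached 0.11, UQCRHL, an intronless copy of UQCRH, lay at 0.43 to 0.54, and ATP5MGL reached 0.57. These 8 members did not enter the test. The read-through genes NDUFC2-KCTD14 and ATP5MF-PTCD1 share exonic bases with NDUFC2 and ATP5MF and were low, with means of 0.817 and 2.43. In all, 30 tested members share exonic bases with another gene. Among the 51 that do not, 23 were called higher and 2 lower in C17.2, and among the 36 without a pseudogene row 15 were called higher and 3 lower.

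Short transcripts were frequent among the members, whose median length was 763 bases against 3295 for protein-coding genes tested. Of 48 members under 1000 bases, 26 were called higher in C17.2 (median log2 fold change 0.32), as were 14 of the 33 longer members (median 0.14). Of 713 other protein-coding genes under 1000 bases, 164 were called higher (23%) and 141 lower (19.8%), with a median of 0.04, where 17.1% of all protein-coding genes tested were called higher and 16% lower. The part of transcript length in the members' values was not tested beyond this and the next count. After a trend on transcript length was taken out of each library, 43 members were called higher and 4 lower in C17.2. On that scale 13.3% of all genes were called higher and 14.0% lower.

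Related genes were counted in the same way, and their counts moved with the scaling. Of 48 assembly factors 9 were called higher (18.8%) and 4 lower (8.33%) in C17.2, against 13.4 and 13.9% of all genes. Their median was 0.06, and 0.0924 without the first parental library of C17.2. The counts became 14 and 1 with the TPM as deposited and 14 and 3 after rescaling over protein-coding genes. On those scales 24.7 and 20.1% of all genes were called higher, and 8.19 and 11% lower. In C3.2 the 2 called higher (4.17%, against 4.46% of all genes) became 6 after that rescaling, where 10.9% of all genes were called higher. UQCC2, an assembly factor of complex III, rose by 0.95 ± 0.225 (adjusted p = 0.0237) and ECSIT, of complex I, fell by 0.61 (adjusted p = 0.00498). In C3.2 NDUFAF1 rose by 0.38 (adjusted p = 0.0279) and COX16 fell by 0.29 (adjusted p = 0.0497). COX16 was the 1 assembly factor called lower there (2.08%, against 6.9% of all genes). Of the alternatives that changed the processing, only a minimum TPM of 5 kept a lower call in C3.2. With the clone fitted alone, 0 assembly factors were called higher in C3.2. CYCS, cytochrome c, rose in C17.2 from 19.3 and 17.8 scaled TPM to 26.4 and 27.7 (0.52 ± 0.0738, adjusted p = 0.00366). CYC1 and NDUFAB1, subunits of complexes III and I whose symbols lie outside the families above, had values of 0.11 and 0.28 and were not called. Of 13 coenzyme Q synthesis genes 1 was called in C17.2 (7.69%, where 13.9% of all genes were called lower). It was COQ5, which fell by 0.21 (adjusted p = 0.0486). No gene of this list was called lower with a pseudocount of 0.1, with the clone fitted alone or without an intensity trend, whereas 6 were called higher with the TPM as deposited and 3 after rescaling over protein-coding genes. Of 14 citric acid cycle genes 1 was called in C17.2 (7.14%, also below the 13.9% of all genes called lower). It was DLST, which fell by 0.27 (adjusted p = 0.0236). Over the alternatives 0 to 2 genes of the cycle were called in each direction.

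The mitochondrial ribosome, which translates the mitochondrially encoded subunits, had 10 of 75 genes called higher (13.3%) and 9 lower (12%) in C17.2, close to the 13.4 and 13.9% of all genes. The counts were 32 and 4 with the TPM as deposited, 28 and 6 after rescaling over protein-coding genes, 17 and 9 without either resistant library of C3.2, and as low as 5 and 3 over the alternatives. MRPL51 rose by 0.44 (adjusted p = 0.00125) and MRPL10 fell by 0.60 (adjusted p = 0.018). In C3.2, 3 were called higher and 3 lower (4.0% each, against 4.46 and 6.9% of all genes). Each count ranged from 0 to 3 over the alternatives. Among them MRPL58 was at 0.57 (adjusted p = 0.0167) and MRPS21 at -0.42 (adjusted p = 0.0231). Of 13 mitochondrially encoded subunits, MT-ATP8 (0.42, adjusted p = 0.00341) and MT-ND4L (0.31, adjusted p = 0.0217) were called higher in C17.2. The count called higher was thus 2 (15.4%, against 13.4% of all genes). This count was 6 with the TPM as deposited, 5 after rescaling over protein-coding genes, 4 with quantile normalization, 7 with the clone fitted alone, 8 without either resistant library of C3.2, and 1 when each library of C17.2 was left out in turn. In C3.2, 7 were called lower without its first resistant library. The summed level of the 13 in resistant against parental cells was 1.15-fold in C17.2 and 0.943-fold in C3.2. In C17.2, 12 of the 13 had positive values, with a median of 0.18 (0.1676 to 0.3582 over the alternatives). Both resistant libraries lay above both parental libraries for 12 (33.3% of all genes). In C3.2, 11 had negative values, with a median of -0.09 (-0.2438 to 0.0801 over the alternatives). Both resistant libraries lay below both parental ones for 5 there (28.1% of all genes).

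Among 17 tested regulators of mitochondrial biogenesis 1 was called higher (5.88%) and 2 lower (11.8%) in C17.2 (0 to 1 and 1 to 3 over the alternatives). Both shares lay below the 13.4 and 13.9% of all genes. PPRC1, a coactivator related to PGC-1, rose in both clones, by 0.18 (adjusted p = 0.0318) and 0.23 (adjusted p = 0.0266). LRPPRC, which stabilizes mitochondrial messenger RNAs, was the only one called lower in both clones: it went from 64.6 and 64.9 scaled TPM to 45.5 and 45.2 in C17.2 (-0.50 ± 0.0507, adjusted p = 0.00103) and from 67.7 and 68.4 to 55.5 and 50.7 in C3.2 (-0.35 ± 0.0507, adjusted p = 0.0106). MTERF1 was called lower in C17.2 (-0.38, adjusted p = 0.0254) and had a value of -0.34 in C3.2 (adjusted p = 0.0662). TEFM was called higher in C3.2. In that clone 2 regulators were called higher (11.8%, against 4.46% of all genes) and 1 lower (5.88%, against 6.9%). The count called lower there was 0 with the TPM as deposited and with the clone fitted alone, so the LRPPRC call was lost. In both clones the count called higher was 0 with the clone fitted alone and without an intensity trend. The transcripts of the factors themselves were not called in either clone, with values of 0.06 and 0.18 for NRF1, -0.08 and -0.02 for GABPA, 0.07 and -0.28 for TFAM, the mitochondrial transcription factor, and -0.20 and -0.01 for the nuclear receptor ESRRA. PPARGC1A, which encodes PGC-1alpha, was at or below 0.16 scaled TPM in every library and was not tested.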

How the data were processed

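RNA was sequenced from 8 libraries (2 clones, parental and resistant, 2 libraries each). Per the submitters' processing notes and the study's methods, reads were trimmed (Trim Galore 0.6.3), mapped to GRCh38.p13 (STAR 2.7.9a) and assigned to Gencode 31 genes (RSEM 1.3.1). The authors deposited TPM per gene, which keeps no depth. The labels give single-end and the study's methods paired-end reads. The study's limma-voom fit needs counts and was not repeated. Here, 15614 genes were kept (TPM of 1 or more in any library), libraries were scaled by trimmed-mean factors (30% of ratios and 5% of means trimmed from each end), and limma 3.58.1 (R 4.3.3), with an intensity trend and 1 model of the 4 groups, was run on log2(scaled TPM + 1), two-sided, with Benjamini-Hochberg adjustment over all genes tested and a threshold of 0.05. An exact permutation test of 2 against 2 libraries cannot go below 0.333. Members and lists were chosen with earlier results of these data known. Genes named were, per complex and clone, the largest changes, those with the smallest adjusted p, core subunits, isoform pairs and members not tested, and in each list the largest called changes and the main regulators. Exonic overlaps and lengths came from Gencode 44 on GRCh38, and promoters from RefSeq (GRCh38.p14). Steps were checked on simulated data. No samples or columns were left out. Some genes are not reported here.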

Additional observations from a re-analysis of the deposited data

Results flagged for a closer look

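The change in C17.2 differed from that in C3.2 past the threshold (limma interaction, adjusted p under 0.05) for 20 members, given here as the change in C17.2 minus that in C3.2 on the log2 scale. In complex I these were NDUFA6 (0.93), NDUFA1 (0.78), NDUFS5 (0.78), NDUFA2 (0.65), NDUFB2 (0.62), NDUFC1 (0.57) and NDUFB3 (0.49). In complex III they were UQCRH (0.59) and UQCRQ (0.58). In complex IV they were COX7B (0.98), COX6C (0.52), COX6A1 (0.51), COX6B1 (0.31) and NDUFA4L2 (-1.72). In complex V they were ATP5F1E (0.89), ATP5MG (0.69), ATP5PF (0.52), ATP5MF (0.41), ATP5MPL (0.39) and ATP5MC1 (0.39). Among the related genes named, the difference was 0.56 for CYCS, 0.53 for MRPL51, 0.51 for MT-ATP8, -0.39 for DLST and -0.67 for MRPL58. Groups of 2 libraries are too small for a check of single outlying libraries.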

How the results depend on the processing

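With 2 libraries a group and no read depth, a member's 95% interval reached a median of 0.178 to either side on the log2 scale. All 43 members called in C17.2 kept their direction in all 17 alternatives, 36 kept the call in the 9 that changed the processing, and 20 in all 17. The number called higher there ranged from 22 to 45 without a single library, and the median of 0.27 became 0.43 with the TPM as deposited, 0.36 rescaled over protein-coding genes, and 0.22 to 0.29 without a single library. In C3.2 the median of -0.04 turned to 0.0268, 0.0406 and 0.064 with the TPM as deposited, quantile normalization and rescaling over protein-coding genes, where the median of all genes was 0.05, 0.03 and 0.08, and was -0.0557 to -0.0015 without a single library, the latter without the second resistant library. The count called higher in C3.2 was 2 with quantile normalization, 6 with protein-coding rescaling, 1 with the length trend removed, 1 with a minimum TPM of 5, and 0 to 4 without a single library. The count called lower was 0 with the TPM as deposited and with the clone alone, 2 with the length trend removed, with a pseudocount of 0.1 and without an intensity trend, and 0 to 10 without a single library. The 20 differences between clones became 12 with no filter, 13 without an intensity trend, and 4 to 30 without a single library. Over all genes, calls in C3.2 were 39.3% higher as reported, 57.8% with the TPM as deposited, 50.8% with quantile normalization and 70.1% with protein-coding rescaling; in C17.2 they were 49.1%, 75.1%, 54.1% and 64.5%, and 49.6% and 64.0% of the differences were positive as reported and with the TPM as deposited. In C3.2, 5.04% of all genes were called higher with quantile normalization and 10.9% with protein-coding rescaling. The cause of these shifts was not tested. No paired analysis was possible because the labels carry no replicate numbers.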
